A study of Arabidopsis thaliana with 16 samples.

Results

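WSD1 (locus AT5G37300), a wax ester synthase, and AT5G55450, a lipid transfer protein, are 2 genes on chromosome 5 of Arabidopsis thaliana whose leaf transcripts were followed through a rise in temperature. Both were chosen because earlier results of these same arrays showed them falling at later states, so their own values are given below as a description, without a test. The array annotation assigned 1 probe set to each gene alone, 249614_at to WSD1 and 248062_at to AT5G55450, and assigned neither gene to a probe set with several genes. They are 2 of 22746 probe sets that are no controls.

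The aerial surface of a plant is covered by a cuticle made in the epidermis, a cutin polyester filled and coated with waxes that limits water loss. Very long-chain fatty acids are elongated in the endoplasmic reticulum and then turned into alkanes or alcohols, and WSD1 joins such an alcohol to an acyl chain to give a wax ester, a reaction known from Arabidopsis stem wax. Lipid transfer proteins are small, mostly secreted proteins with a set of conserved cysteines around a cavity that holds a lipid. Members of this family have been linked to export of surface lipids and to defence, and the particular lipid carried by most of them is not known.

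The study took the first fully expanded leaf of line Columbia (ecotype Col-0) raised at 22 °C under 350 µmol m-2 s-1 of light for 10 h a day at 60% humidity. Leaves were sampled while the temperature was stepped up from 22 to 42 °C, 2 °C per 10 min with 20 to 30 min of stabilisation, and each of 4 states of photosynthesis has 4 arrays (n = 4 in every group below). The baseline leaves were at growth temperature, the optimum leaves at the peak of photosynthesis, and the other groups at 20% and 30% inhibition from that peak. The labels name no temperature for a state, and warmer leaves were sampled later in a curve lasting 3 to 4 h, so heat, elapsed time and hour of the day cannot be told apart. The labels call the replicates randomly collected plants, so that errors measure the spread between these leaf samples. Each SE from limma pools the spread of a gene over all 4 states. It can thus be too small where the states compared are the more variable ones. All levels below are log2 signals as deposited, on which a difference of 1 is a doubling.

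WSD1 was highest at the baseline and already far lower at the optimum, before photosynthesis had declined. Its log2 signals at the baseline were 8.01, 8.17, 8.02 and 8.005 in replicates 1 to 4, with a mean of 8.05 ± 0.08 (SD, n = 4). At the optimum they were 6.90, 6.76, 6.85 and 6.25, with a mean of 6.69 ± 0.30. The highest optimum array lay 1.11 below the lowest baseline array, so the groups did not overlap. How many of all probe sets have groups that do not overlap was not counted, for this or any comparison below. Such gaps are therefore a description only. The log2 change was −1.36 ± 0.22 (SE from limma), or 2.56-fold lower.

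Under inhibition WSD1 stood a little lower again, unevenly between arrays. At 20% inhibition the signals were 6.61, 6.70, 6.07 and 6.44 (mean 6.45 ± 0.28), which overlapped with the optimum. At 30% inhibition they were 6.56, 5.28, 5.57 and 6.15 (mean 5.89 ± 0.58), and replicates 1 and 4 of this state lay within the range of the 20% inhibition arrays. All 12 arrays taken above the baseline lay below all 4 baseline arrays. Against the baseline the log2 change was −1.60 ± 0.22 at 20% inhibition, 3.02-fold lower, and −2.16 ± 0.22 at 30% inhibition, 4.47-fold lower.

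AT5G55450 took another course, with no lower level at the optimum and a large drop between the optimum and 20% inhibition. Its signals at the baseline were 8.98, 9.17, 9.44 and 8.49 (mean 9.02 ± 0.40), and at the optimum 9.62, 9.57, 9.29 and 9.92 (mean 9.60 ± 0.26). The optimum mean was the higher one, by a log2 difference of 0.58 ± 0.26, and the 2 groups overlapped, since baseline replicate 3 read above optimum replicate 3. At 20% inhibition the signals were 6.51, 7.27, 6.24 and 7.60 (mean 6.90 ± 0.64). The highest of these lay 1.69 below the lowest optimum array and 0.89 below the lowest baseline array.

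At 30% inhibition AT5G55450 read 6.53, 6.50, 6.29 and 6.02 (mean 6.34 ± 0.23), overlapping with 20% inhibition. Its log2 change was −2.11 ± 0.26 from the baseline to 20% inhibition, 4.33-fold lower, and −2.68 ± 0.26 from the baseline to 30% inhibition, 6.42-fold lower. Set against the optimum, its highest mean, the changes were −2.69 ± 0.26 at 20% inhibition and −3.26 ± 0.26 at 30% inhibition, 6.47-fold and 9.60-fold lower.

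**Figure D1:**
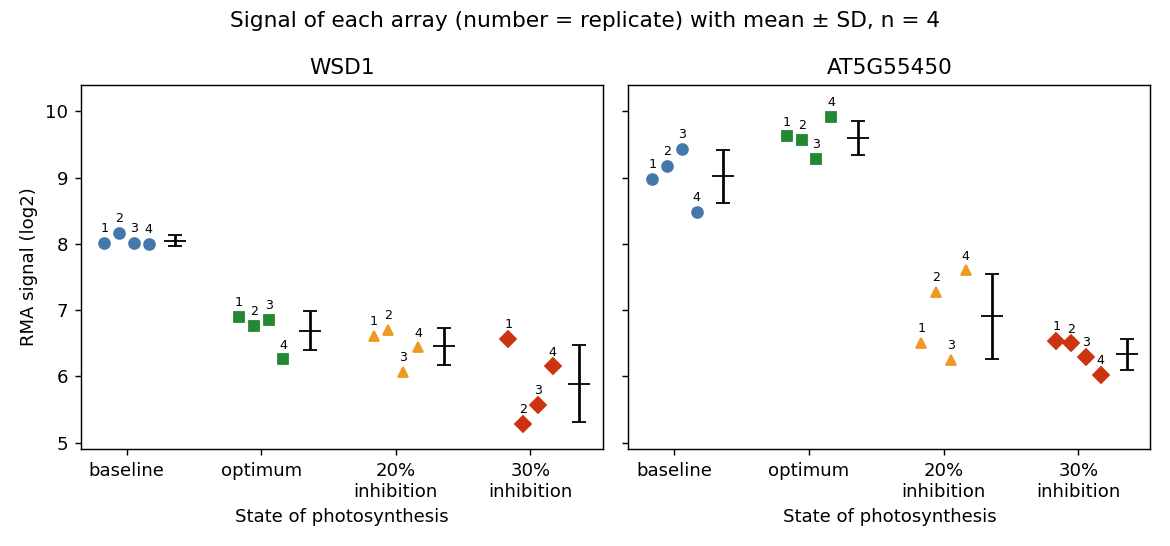
Log2 RMA signal of WSD1 (left) and AT5G55450 (right) in each of 16 arrays, by state of photosynthesis; numbers are replicates and black bars are mean ± SD (n = 4). WSD1 drops from 8.05 to 6.69 between baseline and optimum, whereas AT5G55450 drops from 9.60 to 6.90 between optimum and 20% inhibition.

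The order of the levels thus differed between the genes. For WSD1 it was baseline, optimum, 20% inhibition and 30% inhibition from high to low, where the baseline stood clear and the other 3 states overlapped with each other. For AT5G55450 it was optimum, baseline, 20% inhibition and 30% inhibition, where optimum and baseline overlapped, 20% and 30% inhibition overlapped, and a gap lay between the pairs. Of the log2 difference between baseline and 30% inhibition, WSD1 had covered 62.9% at the optimum and 73.9% at 20% inhibition. AT5G55450 had covered 78.8% at 20% inhibition, while at the optimum it stood on the other side of its baseline mean. Between 20% and 30% inhibition the differences were alike in size, −0.56 ± 0.22 for WSD1 and −0.57 ± 0.26 for AT5G55450, and both genes' groups overlapped there. Both these values were smaller without 1 array, since WSD1 changed by −0.36 without 30% inhibition replicate 2 and AT5G55450 by −0.34 without 20% inhibition replicate 4. Between the optimum and 20% inhibition WSD1 changed by −0.24 ± 0.22, by −0.38 without optimum replicate 4, by −0.11 without 20% inhibition replicate 3 and by −0.39 once the 25S rRNA signal entered the model.

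Many probe sets changed along the curve, and the members were chosen from these comparisons, so their place among all probe sets is a description only. At the optimum 12 of the 22746 probe sets had a more negative log2 change from the baseline than WSD1, and at 30% inhibition 86 did. For AT5G55450, 8 probe sets had a more negative change from the optimum to 20% inhibition, 4 from the optimum to 30% inhibition, and 28 from the baseline to 30% inhibition. Probe sets called lower at an adjusted p under 0.05 made up 8.43% of all at the optimum, 24.9% at 20% inhibition and 24.9% at 30% inhibition against the baseline. Against the optimum they made up 22.9% at 20% inhibition and 22.6% at 30% inhibition, and between 20% and 30% inhibition 2.97%. Called in either direction were 16.6%, 43.9% and 44.3% against the baseline, 41.7% and 41.2% against the optimum, and 7.16% between the inhibited states, with 18.8%, 18.6% and 4.19% higher in the last 3 of these comparisons.

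Both genes were more variable between replicates than most probe sets in nearly every state. The SD of WSD1 was 0.08 at the baseline, near the median of 0.09 over all probe sets. At 30% inhibition it was 0.58, above that of 99.8% of probe sets in the same 4 arrays. The SD of AT5G55450 was 0.40 at the baseline and 0.64 at 20% inhibition, above that of 99.5% and 99.0% of probe sets.

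Signals of root markers differed between arrays of the same state, and the arrays high in them had the lowest WSD1 signals at 2 states but not at 20% inhibition. Of 3 genes listed as root markers 2 were measured, PYK10 (AT3G09260), a beta-glucosidase abundant in roots, and CO2 (AT1G62500), a marker of the root cortex. Their mean log2 signal ran from 4.37 to 4.55 at the baseline, from 4.53 to 7.57 at the optimum, from 4.62 to 6.96 at 20% inhibition and from 5.41 to 7.52 at 30% inhibition. It thus differed with the state too, and every 30% inhibition array lay above every baseline array. Against the baseline PYK10 changed by 1.80, 1.81 and 2.59, called at 20% and 30% inhibition (adjusted p = 0.045 and 0.0055, limma). PYK10 read 7.95 in optimum replicate 4, 7.45 in 20% inhibition replicate 4, and 7.47 and 7.94 in 30% inhibition replicates 2 and 3, against at most 6.40 in the other 12 arrays.

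The lowest WSD1 signal at the optimum came from replicate 4, and the lowest pair at 30% inhibition from replicates 2 and 3, which are 3 of those 4 arrays. At 20% inhibition the lowest WSD1 signal, 6.07, came from replicate 3 with a root marker mean of 5.42, while replicate 4, with 6.96, had a WSD1 signal of 6.44. Without the 4 arrays the WSD1 change from the baseline was −1.21 at the optimum, −1.59 at 20% inhibition and −1.69 at 30% inhibition, and that between 20% and 30% inhibition was −0.10 ± 0.17. The difference of WSD1 between optimum and 30% inhibition was −0.48 without them, against −0.80 ± 0.22 with all arrays, and that between optimum and 20% inhibition was −0.38. With the root marker mean as a covariate the WSD1 changes from the baseline were −1.05, −1.29 and −1.65, and the one between 20% and 30% inhibition was −0.36.

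AT5G55450 showed no such order at 30% inhibition, where replicate 4, low in root markers, had its lowest signal. At the optimum and at 20% inhibition its highest signal came from replicate 4, the array with the highest root marker mean of its state. Without the 4 arrays its change was 0.47 at the optimum, −2.35 at 20% inhibition and −2.74 at 30% inhibition. With the root marker covariate the difference at the optimum was 0.25 ± 0.24, and the changes at 20% and 30% inhibition were −2.45 and −3.24. Both settings were added after the marker values had been seen.

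**Figure D2:**
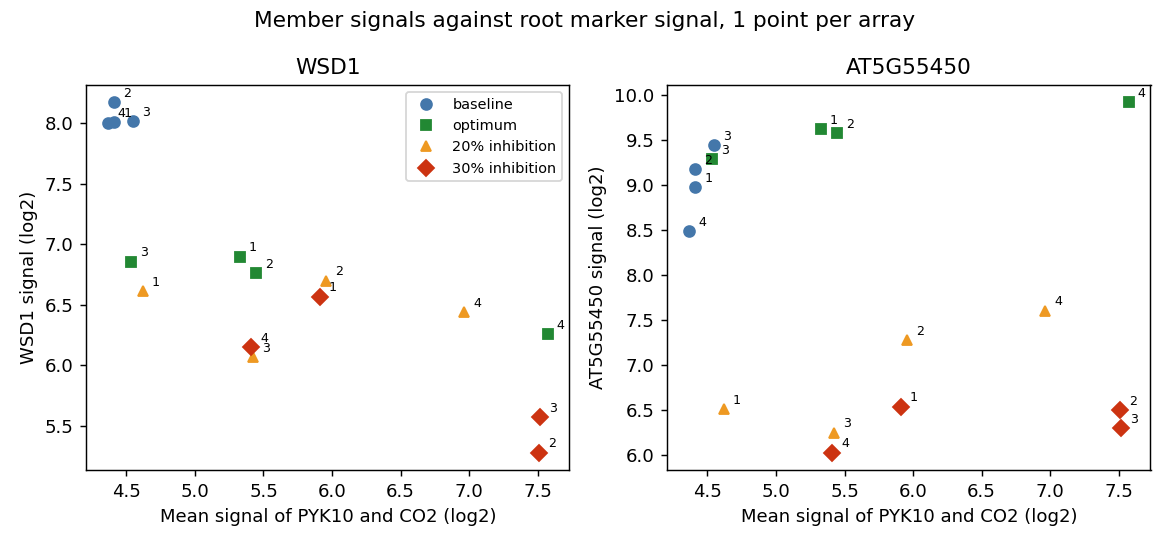
Log2 signal of WSD1 (left) and AT5G55450 (right) against the mean log2 signal of the root markers PYK10 and CO2, with 1 point per array, coloured by state and numbered by replicate. The lowest WSD1 points of the optimum and of 30% inhibition are the arrays with root marker means of about 7.5, and the baseline arrays lie together at the left.

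Other measures of the arrays moved with the state as well. The 25S rRNA control lay between 5.52 and 6.41 on arrays of the first 2 states, from 8.67 to 11.4 at 30% inhibition and from 5.25 to 13.0 at 20% inhibition, where replicate 3 was the low array. Apart from that array, the 25S signal separated the inhibited states from the first 2. Within a state it differed most at 20% inhibition, because of replicate 3. Adjustment for it thus depends largely on that array, for every gene given with the 25S covariate. With the 25S signal as a covariate AT5G55450 changed by −2.54 at 20% and −3.06 at 30% inhibition. The leaf marker RCA lay between 14.3 and 14.6, near the top of the signal range, and was called slightly lower at 20% inhibition (−0.20, adjusted p = 0.0011, limma) and 30% inhibition (−0.16, adjusted p = 0.0086, limma). None of 5 listed epidermis markers had a named probe set, while the trichome regulator TRY fell at each state against the baseline (−0.83, −1.61 and −1.67, adjusted p at most 8.5e-05, limma) and the guard cell marker GASA9 fell at 20% and 30% inhibition (−1.63 and −1.83, adjusted p at most 9.2e-07, limma). FAMA, the other guard cell marker measured of 6 listed, changed by −0.18, −0.42 and −0.17 and was called at 20% inhibition alone (adjusted p = 8.1e-04, limma). The part of these markers in the values of WSD1 and AT5G55450 was not tested. In whole leaves fewer cells of a type and less RNA per cell cannot be told apart.

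Genes picked for likeness to a member, by r or by distance, share its course largely because of how they were picked. Those most like WSD1 stood lower from the optimum on. By Pearson's r over the 16 arrays, among 13513 probe sets with 1 gene, the nearest 8 were AT5G50100 (r = 0.97), AT2G41040 (0.97), AT3G56290 (0.96), AT3G47295 (0.95), AT3G24190 (0.95), DJ1D (0.94), AT4G39780 (0.94) and GSTU16 (0.94), the last of the glutathione transferase family. Their log2 changes were smaller than those of WSD1, from −0.27 to −1.03 at the optimum and from −0.40 to −1.63 at 30% inhibition. The 16 arrays come from 4 states, so r takes in differences between state means as well as spread within states, and it is given as a description.

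By the distance between the 3 log2 changes from the baseline, the nearest to WSD1 were AT5G57760 (distance 0.35), AT1G13650 (0.37), AT5G15950 (0.38), the response regulator RR16 (0.41), AT1G55960 (0.45), AT5G42760 (0.55), AT3G27350 (0.56) and AT2G42190 (0.58). AT1G13650 read 10.71 at the baseline and changed by −1.02, −1.57 and −2.31 at the 3 later states. RR16 changed by −1.15, −1.60 and −1.81.

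For AT5G55450 the nearest by r were AT2G31390 (0.98), AT1G01730 (0.98), AT3G57780 (0.97), TSO1 (0.97), AT1G13750 (0.97), AT2G20760 (0.97), AT4G30010 (0.97) and AT3G10610 (0.97). All 8 had a higher mean at the optimum than at the baseline, by 0.02 to 0.30, and a lower one at 30% inhibition, by log2 changes from −0.49 to −2.28. By distance they were AT1G55450 (0.16), AT1G35710 (0.29), AT1G13750 (0.64), AT3G19010 (0.65), AT1G23390 (0.67), AT1G19960 (0.75), AT2G41090 (0.86) and AT5G48490 (0.92). AT1G55450 changed by 0.45, −2.20 and −2.70 at the 3 later states, and AT5G48490, described again below, by −0.28, −2.16 and −2.37. WSD1 and AT5G55450 were not near each other, with r = 0.62, a value exceeded by 2020 probe sets for WSD1 and by 2466 for AT5G55450.

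**Figure D3:**
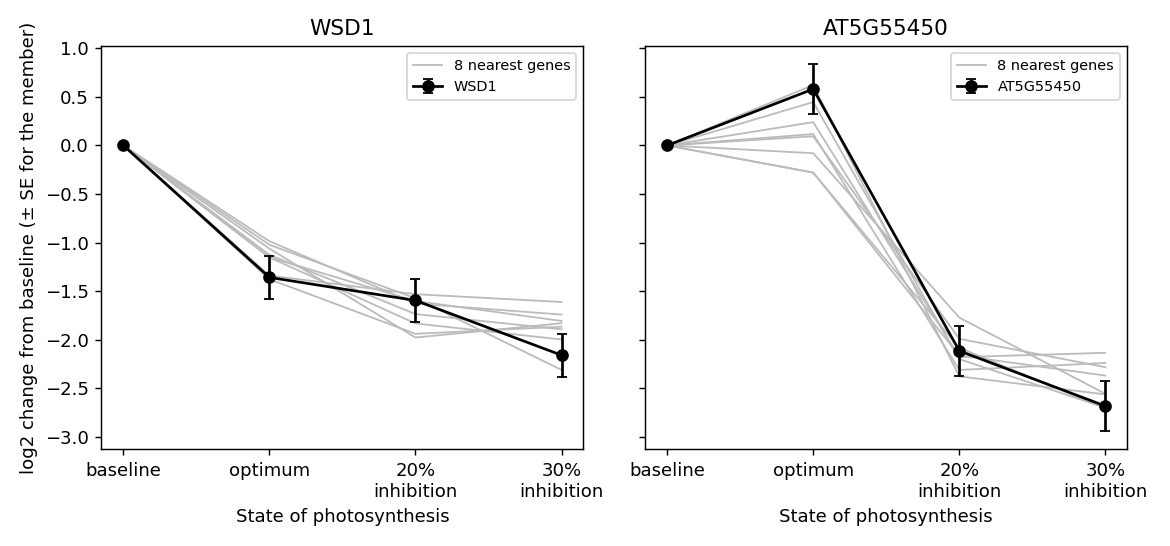
Mean log2 change from the baseline at each state for WSD1 (left) and AT5G55450 (right), black with SE, and for the 8 genes nearest to each by distance of these changes (grey). The WSD1 group is lower from the optimum on, while the AT5G55450 group stays within −0.28 to 0.62 of the baseline at the optimum and drops at 20% inhibition.

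Genes beside the members on chromosome 5 had smaller changes. Among the 5 protein-coding genes on each side of WSD1 in RefSeq order, 4 had a named probe set. The adjacent AT5G37290 fell at 20% and 30% inhibition (−0.47 for both, adjusted p = 0.0022 and 0.0021, limma) and AT5G37310, on the other side, rose at 30% inhibition by 0.21 (adjusted p = 0.014, limma), as did AT5G37280 (0.21, adjusted p = 0.042, limma), while AT5G37360 was not called. Around AT5G55450, AT5G55400 was the measured one of 10 and fell at 20% and 30% inhibition (−0.79 and −0.86, adjusted p = 1.2e-06 and 4.2e-07, limma).

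The other genes of surface lipids and of lipid transfer were taken from lists of 208 loci, of which 57 had a probe set assigned to them alone. Placement in a list comes from general knowledge of these loci. Genes named below by locus alone carry no symbol in the annotation used. Against the baseline 3 rose and 6 fell at the optimum, 1 rose and 13 fell at 20% inhibition, and 3 rose and 14 fell at 30% inhibition (limma, adjusted p under 0.05 over all probe sets). The shares that fell, 10.5%, 22.8% and 24.6%, stood beside 8.43%, 24.9% and 24.9% of all probe sets. The shares that rose, 5.26%, 1.75% and 5.26%, stood beside 8.14%, 18.9% and 19.3%.

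Of the 57 genes 29 were in the dim range (mean log2 signal under 5.02, which holds the lowest part of all probe sets). Over the other 28 genes 5, 12 and 10 fell, or 17.9%, 42.9% and 35.7%, beside 11.6%, 34.6% and 34.3% of all probe sets above that level, and 2, 1 and 2 rose, or 7.14%, 3.57% and 7.14%, beside 11.6%, 24.8% and 26.2%. The median change of the 57 genes was −0.07, 0.03 and −0.01 at the 3 states, against −0.03, 0.00 and −0.01 over all probe sets. The 3 rises at the optimum became 1 without baseline replicate 1, 2 or 4 or optimum replicate 4 and 0 with the root marker covariate. The count of 1 rise at 20% inhibition became 0 without baseline replicate 1, 2 or 4, 20% inhibition replicate 4 or 30% inhibition replicate 1 or 3, and 2 without optimum replicate 1. The 3 rises at 30% inhibition became 1 without baseline replicate 1 or 4 or 30% inhibition replicate 3 and 0 without 30% inhibition replicate 2. The falls at the optimum became 3 without the 4 arrays high in root markers. Calls over all probe sets at the optimum dropped too, from 3770 to 2648 without these arrays and 2318 with the root marker covariate.

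Among wax ester synthase relatives 4 of 10 were measured, all in the dim range. AT3G49210 fell by 0.34 ± 0.07 at 20% inhibition (adjusted p = 8.4e-04, limma) and by 0.43 ± 0.07 at 30% inhibition (adjusted p = 9.2e-05, limma). AT1G72110, AT3G49190 and AT5G12420 changed by between −0.15 and 0.07 in the 3 comparisons with the baseline and were not called. None of these 4 relatives was called at the optimum in the model of all arrays by limma, where 1 had an unadjusted p under 0.05. AT3G49210 was called lower there with arrays centred on medians (−0.22, adjusted p = 0.046, limma) and with array weights (−0.22, adjusted p = 0.034, limma).

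In the elongation of very long-chain fatty acids 2 of 33 listed genes were measured. Both fell at 20% and 30% inhibition, where 24.9% of all probe sets were called lower. AT4G13840 (CER26), a partner of the elongase in making the longest wax precursors, had baseline signals of 10.57, 10.47, 10.46 and 10.48. At 20% inhibition they were 9.34, 9.59, 9.15 and 9.40, and at 30% inhibition 9.38, 9.32, 8.996 and 9.56. The changes were −1.13 ± 0.10 and −1.18 ± 0.10 (adjusted p = 9.4e-08 and 5.0e-08, limma), and at the optimum it was not called (−0.26). Its relative AT3G23840 (CER26-LIKE) fell at the optimum (−0.42 ± 0.08, adjusted p = 0.0016, limma) and at 20% inhibition (−0.33 ± 0.08). Its call at 30% inhibition (−0.20, adjusted p = 0.049, limma) ended under 19 of 28 alternatives, among them leaving out any optimum array, baseline replicate 1, 2 or 4, 20% inhibition replicate 2 or 30% inhibition replicate 1, 3 or 4.

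For the alkane and alcohol branches AT1G02190, a relative of CER1, was the measured locus of 12 and was not called against the baseline. In the cutin and suberin list 2 of 22 were measured. FACT, which adds caffeic acid to fatty alcohols, was not called (−0.01 at 30% inhibition), and AT5G33370 was called higher at 20% inhibition by 0.72 ± 0.28 (adjusted p = 0.044, limma), a call that ended under 11 of 28 alternatives and stood at 0.24 with the root marker covariate. Its call ended without baseline replicate 1, 2 or 4, 20% inhibition replicate 2 or 4, or 30% inhibition replicate 1 or 3. None of 8 cuticle exporters and none of 6 storage lipid acyltransferases had a named probe set.

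Of 21 cuticle regulators 5 were measured, and those that fell did so most at 20% inhibition. AT5G61590 (DEWAX), a repressor of wax genes, read 8.90, 8.81, 8.63 and 9.16 at the baseline and 6.19, 6.30, 9.95 and 6.57 at 20% inhibition. Replicate 3 of that state thus stood above every baseline array while the other 3 stood far below, for a change of −1.62 ± 0.56 (adjusted p = 0.026, limma). Without that array the change was −2.52, and with the 25S rRNA signal, which was also apart in that array, as a covariate it was 0.27. The call ended without baseline replicate 1 or 4 and without 20% inhibition replicate 1, 2 or 4. At 30% inhibition it read 7.96, 7.77, 7.83 and 8.24, all below the baseline, for a change of −0.93 that was not called in the model of all arrays. It was called when baseline and 30% inhibition were fitted alone (adjusted p = 6.0e-05, limma) or without 20% inhibition replicate 3 (adjusted p = 9.9e-06, limma), and with the 25S covariate the value was 0.78, not called.

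AT5G07580, listed with DEWAX as a repressor of wax genes, showed the same odd array, with 6.86, 6.72, 8.50 and 7.09 at 20% inhibition against 8.63 to 8.78 at the baseline. It fell by 1.41 ± 0.27 (adjusted p = 3.5e-04, limma), a value of −0.53 with the 25S covariate (adjusted p = 0.056), and rose again by 0.95 ± 0.27 from 20% to 30% inhibition (adjusted p = 0.043, limma). AT1G55270, an F-box gene of the list, fell at all 3 states, by 0.34 ± 0.07, 0.63 ± 0.07 and 0.32 ± 0.07. SHN3, an activator of cuticle genes, and AT5G44150 were not called at any of them.

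Among secreted lipid transfer proteins, the class of AT5G55450, 20 of 44 listed genes were measured and 10 of these were in the dim range. Against the baseline 1 rose and 1 fell at the optimum, 3 fell at 20% inhibition, and 3 rose and 3 fell at 30% inhibition. The shares that fell, 5%, 15% and 15%, stood beside 8.43%, 24.9% and 24.9% of all probe sets. Those that rose, 5%, 0% and 15%, stood beside 8.14%, 18.9% and 19.3%. AT5G48490, a relative of the defence protein DIR1, had the largest fall of the list. It read 10.64, 10.90, 10.93 and 10.70 at the baseline, 10.76, 10.58, 10.61 and 10.09 at the optimum, 7.93, 8.44, 9.72 and 8.43 at 20% inhibition and 8.57, 8.43, 8.31 and 8.37 at 30% inhibition.

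The later 2 states of AT5G48490 did not overlap with the first 2, and its changes from the baseline were −2.16 ± 0.26 and −2.37 ± 0.26 (adjusted p = 2.4e-06 and 8.1e-07, limma). With the 25S covariate the former was −1.32. At the optimum it was −0.28 and not called, and AT5G55450 stood at 0.58 in the same arrays. AT1G48750 and AT4G33550 also fell at 20% inhibition (−0.57 and −0.45) and at 30% inhibition (−0.54 and −0.58).

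The rises of this class at 30% inhibition were small or tied to a few arrays. AT5G05960 rose at the optimum (0.63 ± 0.15, adjusted p = 0.0098, limma). That call ended under 1 of 28 alternatives, the root marker covariate (0.41, adjusted p = 0.071, limma). AT5G05960 was not called at 20% inhibition (0.02) or 30% inhibition (−0.17). At 30% inhibition it was called lower with the root marker covariate (−0.53, adjusted p = 0.017, limma) and without the 4 arrays high in root markers (−0.48, adjusted p = 0.010, limma). AT5G01870 rose at 30% inhibition (1.05 ± 0.35, adjusted p = 0.020, limma), a call that ended under 4 of 27 alternatives. It was not called without 30% inhibition replicate 2 (adjusted p = 0.058, limma) or 3 (adjusted p = 0.081, limma). Nor was it called with the 25S covariate (0.49, adjusted p = 0.41, limma) or the root marker covariate (−0.016). Without the 4 arrays high in root markers the value was 0.53, still called. AT3G53980 and AT3G18280 were called higher at 30% inhibition (0.34 and 0.31, adjusted p = 0.041 and 0.026, limma) and AT3G52130 lower at the optimum (−0.26, adjusted p = 0.040, limma), and these calls ended under 10, 7 and 10 of the alternatives, with AT3G53980 at 0.06 without the 4 arrays. Leaving out 1 array ended the first 2 calls for baseline replicate 1 or 4 or 30% inhibition replicate 2, for AT3G53980 also baseline replicate 2 or 30% inhibition replicate 3, and for AT3G18280 also 30% inhibition replicate 4. For AT3G52130 any baseline array, except replicate 2, or optimum replicate 2, 3 or 4 did so.

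Of 31 GPI-anchored lipid transfer proteins, which are tethered to the outer face of the plasma membrane, 15 were measured and 11 of them were dim. Against the baseline 1 rose and 2 fell at the optimum, 2 fell at 20% inhibition and 3 fell at 30% inhibition. The shares that fell, 13.3%, 13.3% and 20%, stood beside 8.43%, 24.9% and 24.9% of all probe sets. Those that rose, 6.67%, 0% and 0%, stood beside 8.14%, 18.9% and 19.3%. AT2G27130 fell at all 3 states, with changes of −0.39, −1.25 and −1.40 (SE 0.10 each; adjusted p = 0.011, 1.4e-08 and 3.2e-09, limma), from 8.39 ± 0.10 (SD) at the baseline to 6.99 ± 0.18 at 30% inhibition. At the optimum AT2G27130 was not called without the 4 arrays high in root markers (adjusted p = 0.058). AT5G13900 was called lower at the optimum and at 30% inhibition (−0.20 and −0.18, adjusted p = 0.039 and 0.029, limma). These 2 calls ended under 10 and 7 of 27 alternatives. AT1G62790 had changes of the same sign as AT5G55450. It rose at the optimum (0.48 ± 0.14, adjusted p = 0.029, limma) and fell at 20% inhibition (−0.79 ± 0.14) and 30% inhibition (−0.64 ± 0.14, and −0.99 with the root marker covariate). Its rise was not called without baseline replicate 1, 2 or 4, without optimum replicate 2, 3 or 4, or with the root marker covariate (0.27).

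In the hybrid proline-rich class 8 of 21 were measured, and 1 rose and 1 fell at the optimum, 2 fell at 20% inhibition and 4 fell at 30% inhibition. The shares that fell, 12.5%, 25% and 50% of only 8 genes, stood beside 8.43%, 24.9% and 24.9% of all probe sets. Those that rose, 12.5%, 0% and 0%, stood beside 8.14%, 18.9% and 19.3%. CO2 (AT1G62500), the root marker above, was in none of the lists, so the counts here and above leave it out. It changed by 0.77, 0.80 and 1.72 from the baseline and was called at 30% inhibition alone (adjusted p = 0.014, limma). Its signal is also part of the root marker covariate. AT1G62510 fell at the optimum and was not called against the baseline later (0.10 and 0.13). With the root marker covariate it was called higher than the baseline at 20% inhibition (0.26, adjusted p = 0.020, limma) and 30% inhibition (0.39, adjusted p = 0.0050, limma). It read 11.77, 11.60, 11.55 and 11.61 at the baseline, 10.62, 10.79, 10.70 and 10.30 at the optimum, and 11.54 to 11.94 in the 8 later arrays. It fell by 1.03 ± 0.10 at the optimum (adjusted p = 3.1e-06, limma) and rose by 1.13 ± 0.10 from there to 20% inhibition (adjusted p = 1.6e-07, limma). AT2G10940 and AT2G45180 fell at 20% inhibition (−0.99 ± 0.16 and −0.57 ± 0.10) and at 30% inhibition (−0.96 and −0.46), with smaller changes under the 25S covariate (−0.54 and −0.37, then −0.56 and −0.28, the last not called at adjusted p = 0.053). AT1G12100 was called lower at 30% inhibition (−0.25, adjusted p = 0.0081, limma), a call that ended under 3 of 27 alternatives. AT4G12500 was called higher at the optimum from 2 arrays, replicates 3 and 4 with 5.99 and 5.61 against 3.94 and 4.00 in the other two, a call that ended without either of them (adjusted p = 0.11 and 0.13) or without any of the 4 baseline arrays.

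**Figure D4:**
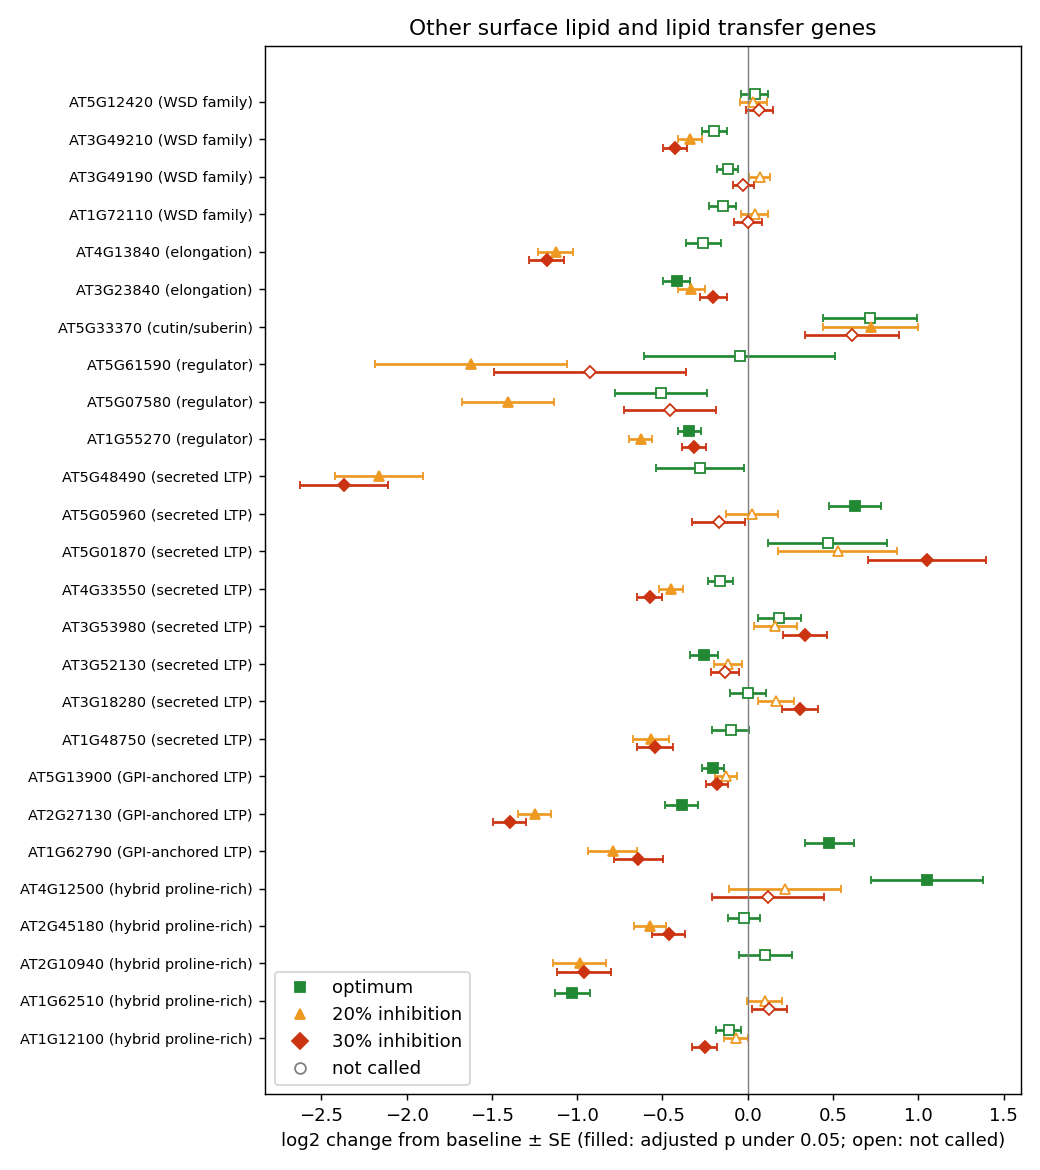
Log2 change from the baseline ± SE for 26 other genes of the surface lipid and lipid transfer lists at the optimum (squares), 20% inhibition (triangles) and 30% inhibition (diamonds), with filled symbols for an adjusted p under 0.05. AT5G48490 lies farthest to the left at the inhibited states, and AT1G62510 is low at the optimum and near 0 later.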

How the data were processed

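RNA from 16 leaf samples was labelled and hybridised to 1-colour Affymetrix arrays. The deposited values are log2 signals per probe set, which the authors normalised with RMA per the submitters' processing notes (which also name limma), without versions. The table held 22810 probe sets, 64 of them controls, with array medians from 6.07 to 6.19 and correlations within states of at least 0.988. Depth is not defined for arrays, and their number limits the precision. The GEO platform annotation gave 1 gene to 13513 probe sets, several to 503 and none to 8730, with names updated through RefSeq TAIR10.1.

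One limma 3.58.1 model (R 4.3.3) with 4 group means was fitted to all 22746 other probe sets, tested 2-sided with Benjamini-Hochberg adjustment over them. It was tested on simulated data first. A gene with several probe sets was read from the brightest. The members and lists were chosen with earlier results of these data known. Named were the members, the measured WSD family and relatives of AT5G55450 and DIR1, up to 3 rising and 3 falling genes per list and comparison, and the 8 nearest genes by r and by distance. The genome neighbours, AT1G02190, FACT, SHN3 and AT5G44150 were named outside this rule after their values were seen. Alternatives are given in the closing section.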

Additional observations from a re-analysis of the deposited data

Results flagged for a closer look

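Within each state, 232 groups of 4 arrays (58 genes) were searched for an array far from the other 3, by Dixon's test, and 13 were found, close to the 1 in 20 that chance gives. For WSD1 baseline replicate 2 (8.17) lay above the other 3 baseline arrays (8.005 to 8.02). Replicate 3 at 20% inhibition was the distant array of 4 genes, AT5G61590 (9.95, others 6.19 to 6.57), AT1G55450 (7.79, others 5.94 to 6.02), AT1G23390 (10.17, others 7.11 to 7.62) and GSTU16 (7.85, others at least 7.98), and that array also had the lowest 25S rRNA signal of its state. AT5G01870 was high in 20% inhibition replicate 4 (5.97), 1 of the 4 arrays with high root markers.

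The others were AT3G53980 in optimum replicate 4 (7.12), AT2G27130 in 30% inhibition replicate 4 (6.72), AT3G27350 in 30% inhibition replicate 3 (7.01), AT2G20760 in 30% inhibition replicate 1 (8.31), AT5G42760 and AT2G41090 in baseline replicate 3 (6.38 and 13.0), and AT2G31390 in baseline replicate 1 (8.92).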

How the results depend on the processing

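The members' changes kept their direction under all 28 alternatives. Many of these could not move a change, so the number of alternatives is no measure of support. Other priors, a fit of the compared arrays alone, fewer probe sets and the replicate blocks keep the difference of 2 group means. So does leaving out an array of a state outside the comparison. With the 25S rRNA covariate AT5G55450 changed by −2.54 and −3.06 from the baseline to 20% and 30% inhibition and by −3.11 and −3.64 from the optimum. With the root marker covariate, added after seeing the data, the changes at 30% inhibition were −1.65 for WSD1 and −3.24 for AT5G55450. Without the 4 arrays high in root markers, also added later, WSD1 changed at 30% inhibition by −1.69 from the baseline, −0.48 from the optimum and −0.10 from 20% inhibition.

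Leaving out 1 array, WSD1 ranged from −1.43 to −1.21 at the optimum, −1.68 to −1.47 at 20% and −2.38 to −1.95 at 30% inhibition, and AT5G55450 from 0.40 to 0.72, −2.35 to −1.89 and −2.86 to −2.54. From optimum to 20%, optimum to 30% and 20% to 30% inhibition WSD1 ranged from −0.38 to −0.11, −1.02 to −0.60 and −0.79 to −0.36, and AT5G55450 from −2.93 to −2.47, −3.37 to −3.16 and −0.79 to −0.34. List genes called higher ranged from 1 to 4 at the optimum, 0 to 2 at 20% and 0 to 4 at 30% inhibition, and those called lower from 4 to 7, 12 to 14 and 11 to 16. Calls over all probe sets, in either direction, ranged from 2710 to 4479, 9126 to 10040 and 9301 to 10528.

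At an adjusted p under 0.01, 1 list gene was higher and 3 lower at the optimum, with 0 higher at 20% and 0 at 30% inhibition (limma; 2 and 4 at an unadjusted p under 0.05). The share of all probe sets under 0.01 was not counted. At 20% inhibition 0 were higher with a robust prior and 2 with the 8 arrays compared alone, with arrays centred on medians, with repeated quantile normalisation or with the 25S covariate. Calls over all probe sets in these settings ran from 7997 with the 25S covariate to 10458 with arrays centred on medians. Array weights gave 10 lower at the optimum. At 30% inhibition the 25S covariate gave 1 higher and 9 lower, the root marker covariate 1 higher (0 at the optimum), and leaving out the 4 arrays 1 higher (3 lower at the optimum). Calls over all probe sets, in either direction, shifted as well. At the optimum they were 3770 in the model of all arrays and 5214 with array weights. The root marker covariate gave 2318 there, and leaving out the 4 arrays 2648. At 30% inhibition the 25S covariate gave 8304, the root marker covariate 8128 and leaving out the 4 arrays 8468, against 10067. Among changes of named list genes called from the baseline, those that reversed were AT5G61590 at 20% inhibition with the 25S covariate (0.27) and AT5G01870 at 30% inhibition with the root marker covariate (−0.016). Changes not called also turned sign under some settings, among them AT5G61590 (0.78) and AT5G07580 (0.34) with the 25S covariate and AT5G33370 (−0.18) with the root marker covariate, all at 30% inhibition. The adjustment for 25S depends largely on 20% inhibition replicate 3, the array low in 25S, where AT5G61590 and AT5G07580 were also apart. Changes with the 25S covariate and without that array were not tested. The cause of the changes of sign was not tested.

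No pairing of arrays by replicate number was seen, which does not show how the leaves were collected. Same-numbered arrays of different states had deviations correlated from −0.36 to 0.31 (24 pairs, 5 over 0.1, median 0.006). Differently numbered ones ran from −0.27 to 0.34 (72 pairs, 18 over 0.1, median 0.004). Of 16 arrays 5 correlated best with their own number. With the replicate block WSD1 changed by −2.16 ± 0.21 at 30% inhibition, and 4 list genes rose and 5 fell at the optimum, beside 3568 calls over all probe sets.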
